A study of Rattus norvegicus with 16 samples.

Results

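The 10 genes described here are the matrix proteases Mmp2, Mmp3, Mmp13, Mmp14, Adamts1, Adamts5 and Htra1 and the protease inhibitors Timp1, Timp2 and Timp3. They were chosen by name, with earlier results of these data known. All 10 were listed in each of the 16 libraries, out of 13596 genes listed in all 4 groups. The intervertebral discs came from 8 male Sprague-Dawley rats that had surgery at an age of 8 weeks. In each rat, L4-5 and L5-6 were stabbed once with a 27G needle (lumbar disc puncture, LDP), and the intact L2-3 and L3-4 served as control (CON). Both discs of a kind were pooled into 1 library. Discs of rats 1 to 4 were taken 2 weeks after surgery and those of rats 5 to 8 after 8 weeks. The control discs thus came from operated animals, and no unoperated rat is among the groups.

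The disc is held together by collagen fibres, mostly in the outer annulus fibrosus, and swollen by aggrecan, mostly in the nucleus pulposus. Matrix metalloproteinases (MMPs) cut collagens and other matrix proteins, ADAMTS enzymes cut proteoglycans such as aggrecan and versican, and the serine protease Htra1 cuts several matrix proteins. The tissue inhibitors of metalloproteinases (TIMPs) bind and block the active site of these metalloenzymes. Much of this control acts on the protein, through cleavage of inactive precursors and through inhibitor binding, and is not seen in mRNA.

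The libraries held 149272 cells, 2221 to 15918 each, and 17759809 to 85025588 recovered unique molecular identifiers (UMIs, counted mRNA molecules), and cells had 3861 to 8092 UMIs at the median. The authors' cell classes were used. Their disc (IVD) class held 37344 cells in CON and 42338 in LDP at 2 weeks, and 22657 in CON and 24738 in LDP at 8 weeks. The LDP library of rat 6 was the smallest, with 1313 IVD cells. At 2 weeks only, the IVD class was divided into cells of the nucleus pulposus (NP) and of the annulus fibrosus, inner (IAF) or outer (OAF). The outer annulus markers fixed for this work (Igfbp5, Igfbp6, Lum, Myoc, Fibin and Col1a1) summed to 53297 to 77510 CPM (UMIs of a gene per 1000000 UMIs of a cell) in OAF cells of CON and to 3048 to 5291 CPM in NP cells. A level below is the mean over cells of each cell's CPM. It comes from tags at the 3′ end of transcripts, so levels are compared between cells and groups, and not between genes.

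RefSeq promoter sequence (build GRCr8) was at hand for 7 of the 10 genes, and Mmp2, Mmp14 and Adamts5 had no entry. The letters TGACTCA or their reverse TGAGTCA, which AP-1 factors bind, and the letters TATAAA were searched from 250 bases before to 50 bases after the start. AP-1 letters stood in 4.63% of 33469 rat promoters and TATAAA, read on the gene's strand, in 8.8%. Mmp3 and Mmp13 held both, and among the 7 promoters no other held the AP-1 letters. Adamts1 held TATAAA alone, and Htra1 and the 3 Timp genes held neither. The 100 bases before the start are shown for the 3 genes with a match, with the matching letters in capitals. They are shown because these are the 3 proteases of the 7 genes in which either motif stood near the start.
Mmp3, chr8:12925181-12925280, plus strand: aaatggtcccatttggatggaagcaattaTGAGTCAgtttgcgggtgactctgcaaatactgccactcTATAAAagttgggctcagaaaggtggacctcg
Mmp13, chr8:12782729-12782828, plus strand: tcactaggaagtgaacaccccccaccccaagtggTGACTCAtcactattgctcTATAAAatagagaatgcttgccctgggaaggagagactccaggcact
Adamts1, chr11:38427385-38427484, minus strand: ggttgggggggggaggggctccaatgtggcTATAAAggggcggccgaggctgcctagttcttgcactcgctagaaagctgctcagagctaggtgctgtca

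Levels by place in the disc are described first, with no test, because cells had been sorted into subclusters by their expression. The genes fell into 2 patterns at 2 weeks. Mmp2, Mmp3, Mmp14, Adamts1, Adamts5 and Timp2 were higher in OAF than in NP and IAF cells in all 8 libraries. Timp3 and Htra1 were lower in OAF than in NP and IAF cells in all 8 libraries.

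Mmp2, gelatinase A, was mainly read in OAF cells. Its level in OAF cells of CON was 730, 757, 613 and 570 CPM in rats 1 to 4, against 35.6, 21.2, 37.4 and 30.3 CPM in NP cells. The ratio of observed OAF to NP levels averaged 21.1-fold in CON and 18.6-fold in LDP, on NP levels that may be background, and no OAF library overlapped an NP library. With each cell thinned to 1000 UMIs, 43.2% ± 3.04 (SD, n = 4 libraries) of OAF cells in CON held an Mmp2 UMI, against 2.72% ± 0.666 of NP cells. Thinning left out 3 of 4222 OAF cells and 0 of 17235 NP cells. In myeloid cells the share ranged from 0% to 3.61%, and the NP share lay within that range. The mean level in CON was 15.1 CPM in myeloid and 31.1 CPM in NP cells. The myeloid cells of CON rat 4 numbered only 25, so this range cannot tell expression in NP cells from background. Median depths of the libraries' OAF cells were 3258 to 7178 UMIs, of NP cells 6997 to 8544 and of myeloid cells 2479 to 5328.

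Mmp14, the membrane-bound enzyme that activates pro-Mmp2, stood at 236, 243, 193 and 127 CPM in OAF cells of CON and at 57.6, 52.2, 44.8 and 53.3 CPM in NP cells, an average of 3.69-fold. Mmp3, stromelysin 1, was at 117, 346, 101 and 87.0 CPM in OAF and at 14.6, 17.01, 6.74 and 5.60 CPM in NP cells of CON. The OAF value of rat 2 stood apart from the other 3 rats, and all OAF libraries lay above all NP libraries. Myeloid cells of CON ranged from 1.96 to 47.7 CPM, so the NP level of Mmp3 may be background too.

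Adamts1, which cuts versican and aggrecan, was at 154, 120, 165 and 109 CPM in OAF cells of CON and at 9.08, 8.31, 9.25 and 8.20 CPM in NP cells. The mean over myeloid cells of CON was 7.09 CPM (0 to 17.9 per library), so the NP level may be background and no fold is given. Adamts1 was also read outside the disc class. Cells without a class stood at 231, 594, 336 and 335 CPM in CON at 2 weeks, and endothelial cells at 290, 237, 226 and 309 CPM in CON, above OAF cells in each of the 4 rats. Adamts5, a main aggrecanase of cartilage, was sparse. It stood at 17.9, 17.1, 17.8 and 26.4 CPM in OAF and at 2.67, 7.34, 4.53 and 4.60 CPM in NP cells of CON, and 0.75% ± 0.2 (SD, n = 4) of all IVD cells in CON at 2 weeks held a UMI after thinning, against 0% of myeloid cells.

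Timp2, the inhibitor that also takes part in pro-Mmp2 activation, was read in all 3 subclusters. Its level was 2639, 2459, 2299 and 2594 CPM in OAF cells of CON and 1190, 967, 1392 and 1286 CPM in NP cells, a ratio of 2.08. Timp3, the matrix-bound inhibitor that also blocks ADAMTS enzymes, ran the other way. It was at 180, 180, 201 and 230 CPM in OAF and at 951, 1142, 1322 and 1061 CPM in NP cells of CON, 0.178 of the NP level on average.

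Htra1 was at 1360, 1605, 1488 and 1228 CPM in OAF cells of CON and at 2208, 3446, 2795 and 1944 CPM in NP cells. Timp1, the inducible inhibitor, differed less between subclusters. It was at 338, 390, 335 and 325 CPM in NP and 386, 417, 420 and 393 CPM in IAF cells of CON. Its OAF level was 524 CPM in rat 1 and 368 to 383 CPM in the other 3 rats, which overlapped both. Within a library, IAF was above NP in 8 of 8 (log2 ratio 0.22 ± 0.099, SD, n = 4, in CON). In LDP, Timp1 was at 349, 402, 364 and 428 CPM in NP and at 412, 510, 473 and 817 CPM in OAF cells, and OAF was above both NP and IAF in 4 of 4 libraries. NP and IAF libraries of CON overlapped for 8 of the 10 genes. The exceptions were Mmp2 and Adamts1, whose IAF libraries all lay above the NP libraries. In LDP that order did not hold, with a mean log2 ratio of IAF to NP of -0.29 for Mmp2 (above 0 in 1 of 4 libraries) and -0.0081 for Adamts1 (above 0 in 3 of 4). The endothelial markers summed to 21.7 to 236 CPM in IAF and 13.2 to 38.4 CPM in NP cells of CON. Mmp13 was above NP and IAF in OAF cells of 6 of 8 libraries.

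**Figure D1:**
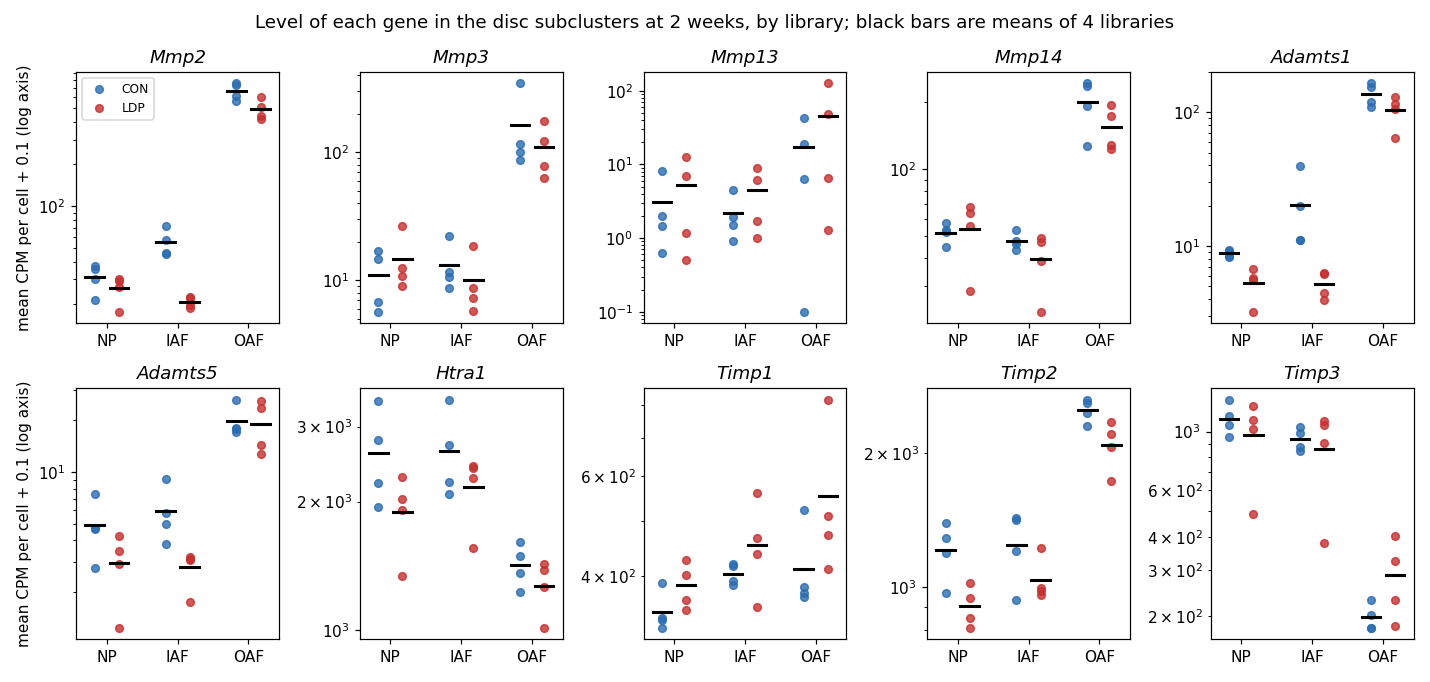
Mean CPM per cell plus 0.1 (log axis) of each gene in NP, IAF and OAF cells at 2 weeks, 1 point per library (CON blue, LDP red) with the mean of 4 libraries as a bar. Mmp2 stands highest in OAF cells (570 to 757 CPM in CON), while Timp3 stands lowest there (180 to 230 CPM).

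Genes that ran most like each member over the 24 points of 8 libraries and 3 subclusters are given as a description. The points share libraries and the same 3 subclusters, so high values were common. Mmp2 ran with Mxra8 (Pearson r = 0.994), Marcks and C1qtnf2, Adamts1 with Dtx3l (r = 0.993), Adamts5 with Bcor (r = 0.97) and Timp2 with Cnpy4 (r = 0.975). Mmp3 ran with Wisp1 (r = 0.95) and Mmp14 with Rab31 (r = 0.958). Timp3 ran with the heparan sulfate proteoglycan gene Sdc4 (r = 0.989) and Htra1 with Gpat3 (r = 0.934). The weakest likeness was that of Timp1, with Arhgdib (r = 0.797), and of Mmp13, with Nfkbid (r = 0.836) and the osteoblast gene Bglap (r = 0.795).

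Mmp13, collagenase 3, which cuts collagen II, was a transcript of few cells. In IVD cells at 2 weeks its level was 9.73, 2.48, 0.634 and 4.05 CPM in CON and 1.27, 1.61, 14.0 and 24.5 CPM in LDP. At 8 weeks it was 18.0, 42.9, 26.8 and 1.61 CPM in CON and 3.52, 18.0, 63.1 and 4.36 CPM in LDP. The groups overlapped at both times, and rats of 1 group lay far apart. The LDP library of rat 7 held 3043 Mmp13 UMIs in 467 of 8728 IVD cells, and the richest 1% of cells held 72.6% of them. After thinning, 0.905% of IVD cells in CON at 8 weeks held an Mmp13 UMI (0.149% to 1.86% per library). The shares in myeloid and lymphoid cells rest on few cells. In myeloid cells the share was 2.07% of 145 cells in rat 5 and 0% in the other 3 rats. In lymphoid cells it was 0% and 0.259% in rats 5 and 6 and 3.85% of 26 cells in rat 7. Median depths were 3362 to 6922 UMIs in the myeloid cells and 1797 to 2344 UMIs in those lymphoid cells. In CON at 2 weeks the mean level was 4.22 CPM in IVD and 7.06 CPM in myeloid cells, the latter from few UMIs. In the 16 libraries, IVD cells with an Mmp13 UMI had more Alpl (16 of 16 libraries, median log2 difference 2.83), more Col10a1 (16 of 16, 2.16) and more Ibsp (15 of 16, 1.76) than IVD cells without. These 3 are genes of hypertrophic cartilage and bone. Bglap and Lum were each higher in 12 of 16 (2.37 and 0.97). Cells with an Mmp3 UMI had more Lum (16 of 16, 2.25) and Col1a1 (15 of 16, 1.07), genes of fibrous tissue, while Alpl (0.37) and Ibsp (0.44) were each higher in 11 of 16. Col10a1 was higher in 7 of 16 (-0.45), and Bglap (-1.28) and Spp1 (-0.38) in 1 of 16 each.

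The injured and intact discs of each rat were then compared in IVD cells. In every rat the punctured discs lay at lower lumbar levels than the intact ones, so puncture and disc level cannot be told apart. The study repeated its clustering for CON and LDP at each time, so the IVD class may not hold like cells in all groups. At 8 weeks each CON library held 0 cells of the endothelial class, and the LDP libraries held 55 to 225. Over both times together, Adamts1, Mmp2, Adamts5, Timp2 and Htra1 were lower in LDP and passed the test (limma with rat as a block, adjusted p below 0.05 over 11150 genes). These 5 of 10 stand beside 5.72% of all genes tested that were called lower in that comparison, and no member was called higher, where 2.08% of genes were (7.8% in either direction). As the members were chosen with earlier results of these data known, that contrast is a description and not a test. At 2 weeks alone and at 8 weeks alone no member passed, where 0.179% and 0.269% of all genes did. Those split into 0.0448% lower and 0.135% higher at 2 weeks and 0.152% lower and 0.117% higher at 8 weeks. At an unadjusted p under 0.05, 481 genes were higher and 821 lower at 2 weeks, and 415 and 1908 at 8 weeks. In all cells of a library no member passed either, where 0% of genes did at 2 weeks and 0.00848% at 8 weeks. At 8 weeks Adamts1 changed by -0.38 and Adamts5 by -0.19 in all cells, beside -1.4 and -0.89 in IVD cells. Mmp2 changed by -1.34, Timp2 by -0.53 and Htra1 by -0.54 in all cells, beside -1.29, -0.53 and -0.48. The median log2 change of the 10 genes was -0.35 over both times, beside -0.12 for all genes tested. With TMM scaling of CPM from summed UMIs, in place of the mean over cells, the median of all genes was -0.01. In that setting 4 of the 5 still passed and Htra1 did not (-0.33, limma adjusted p = 0.079), nor did it with edgeR (-0.34, adjusted p = 0.065). The TMM setting called 510 genes higher and 395 lower, against 232 and 638 in the main fit. It changes both the summing and the scaling, so their parts cannot be told apart.

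Adamts1 had the largest of these changes, -1.09 ± 0.23 (SE, log2, adjusted p = 0.028), and was lower in 7 of 8 rats. Its level in CON was 31.2, 25.2, 39.9 and 19.3 CPM at 2 weeks and 16.2, 16.5, 11.2 and 14.5 CPM at 8 weeks. In LDP it was 12.5, 26.5, 14.6 and 12.5 CPM at 2 weeks and 1.80, 5.08, 8.99 and 5.96 CPM at 8 weeks. The groups overlapped at 2 weeks through rat 2 and did not overlap at 8 weeks. The LDP levels at 8 weeks lay near or below the mean of 7.09 CPM in myeloid cells of CON at 2 weeks, so the size of that fall is uncertain. Myeloid cells of LDP at 2 weeks averaged 2.6 CPM, and both references are from other rats and the earlier time.

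Mmp2 fell by 0.95 ± 0.22 (SE, log2, adjusted p = 0.034) in LDP and was lower in 7 of 8 rats. It was at 148, 124, 110 and 90.0 CPM in CON at 2 weeks against 45.9, 120, 60.4 and 95.8 CPM in LDP, and the groups overlapped. At 8 weeks it was at 74.6, 60.8, 44.9 and 52.8 CPM in CON against 13.9, 37.5, 20.02 and 26.1 CPM in LDP, with no overlap. Myeloid cells at 2 weeks averaged 15.1 CPM in CON and 8.2 CPM in LDP. The LDP levels at 8 weeks may thus hold background, and the size of that fall is uncertain.

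Adamts5 fell by 0.69 ± 0.12 (SE, log2, adjusted p = 0.015), in 8 of 8 rats. It was at 5.42, 8.92, 5.96 and 7.15 CPM in CON and at 4.68, 6.30, 4.31 and 3.31 CPM in LDP at 2 weeks, with overlap. At 8 weeks it was at 4.74, 6.86, 7.05 and 4.66 CPM in CON and at 3.14, 2.22, 3.27 and 2.08 CPM in LDP, with none.

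Timp2 fell by 0.43 ± 0.1 (SE, log2, adjusted p = 0.037), and Htra1 by 0.41 ± 0.084 (SE, log2, adjusted p = 0.025). Timp2 was at 1407, 1161, 1496 and 1460 CPM in CON and at 944, 1196, 1232 and 1037 CPM in LDP at 2 weeks, and was lower in 7 of 8 rats. At 8 weeks it was at 950, 945, 1087 and 1076 CPM in CON and at 466, 775, 802 and 837 CPM in LDP. Htra1 was at 2094, 3205, 2632 and 1918 CPM in CON and at 2011, 2183, 2160 and 1382 CPM in LDP at 2 weeks. At 8 weeks it was at 2575, 2564, 3101 and 2434 CPM in CON and at 2150, 1997, 1780 and 1705 CPM in LDP, lower in 8 of 8 rats in all. Both pairs of groups overlapped at 2 weeks and not at 8 weeks.

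At 8 weeks, 5 of the 10 genes had all LDP libraries below all CON libraries, which held for 11.4% of genes, and none had all above, which held for 2.52%. At 2 weeks 0 of 10 lay wholly below or above, beside 4.42% and 2.74% of genes. They were the 5 genes that passed over both times, and the rats of 8 weeks take part in that test. Adamts5 and Htra1 were lower in all 8 rats, as were 8.3% of genes, and no member was higher in all 8, as 3.59% were. With each rat left out in turn, Adamts5 passed every time (limma adjusted p from 0.019 to 0.049). Adamts1 did not pass without rat 1, 3, 5, 6 or 8 (adjusted p up to 0.075), Htra1 without rat 3, 6, 7 or 8 (up to 0.065), Mmp2 without rat 1, 3, 5, 6, 7 or 8 (up to 0.081) and Timp2 without any but rat 2 (up to 0.086).

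**Figure D2:**
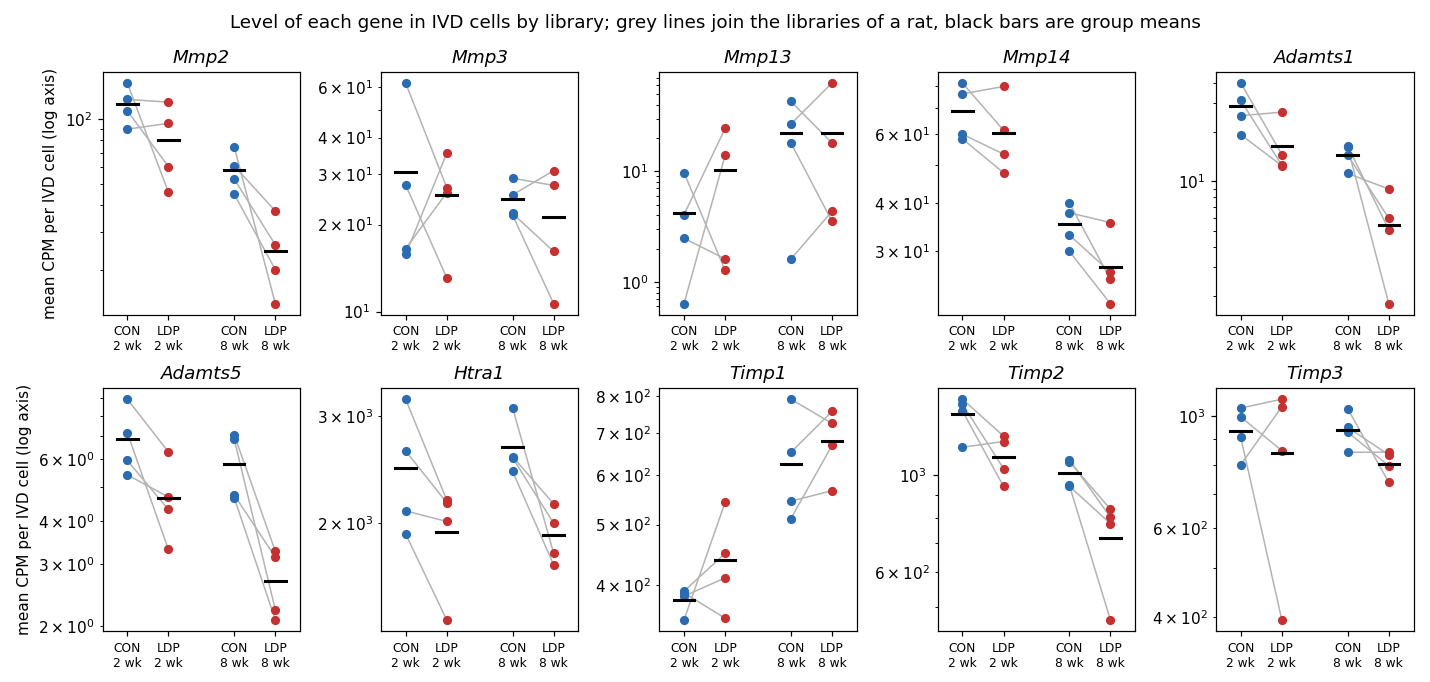
Mean CPM per IVD cell (log axis) of each gene in the 16 libraries, with grey lines joining the CON (blue) and LDP (red) library of a rat and black bars at group means. Adamts1 at 8 weeks lies at 11.2 to 16.5 CPM in CON and at 1.80 to 8.99 CPM in LDP, while the CON and LDP libraries of Mmp13 overlap at both times.

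The other 5 genes did not pass over both times. Mmp14 changed by -0.28 ± 0.091 (SE, log2, adjusted p = 0.08), Timp3 by -0.23 ± 0.15 (adjusted p = 0.29) and Mmp3 by -0.21 ± 0.25 (adjusted p = 0.58) in the same limma fit. Timp1 stood at 0.16 ± 0.096 (adjusted p = 0.26). Timp1 was higher in 6 of 8 rats, at 389, 392, 384 and 352 CPM in CON and 355, 450, 411 and 542 CPM in LDP at 2 weeks. Mmp13 changed by 0.23 ± 0.57 (adjusted p = 0.80). Timp3 in LDP of rat 4 was 394 CPM, below the 854 to 1080 CPM of the other 3 LDP libraries at 2 weeks. None of the 10 changes passed the test of a difference between 8 and 2 weeks (limma, 0% of 11150 genes called, 28 higher and 158 lower at an unadjusted p under 0.05, and 12 called by DESeq2). At 8 weeks alone, leaving out rat 4, a rat of 2 weeks that enters through the shared spread, took Mmp2, Adamts1, Adamts5 and Htra1 past the threshold (adjusted p from 0.027 to 0.049), in a fit that called 5.09% of all genes. DESeq2 on summed UMIs called Mmp2, Adamts1, Adamts5 and Timp2 at 8 weeks, and 5.13% of all genes.

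**Figure D3:**
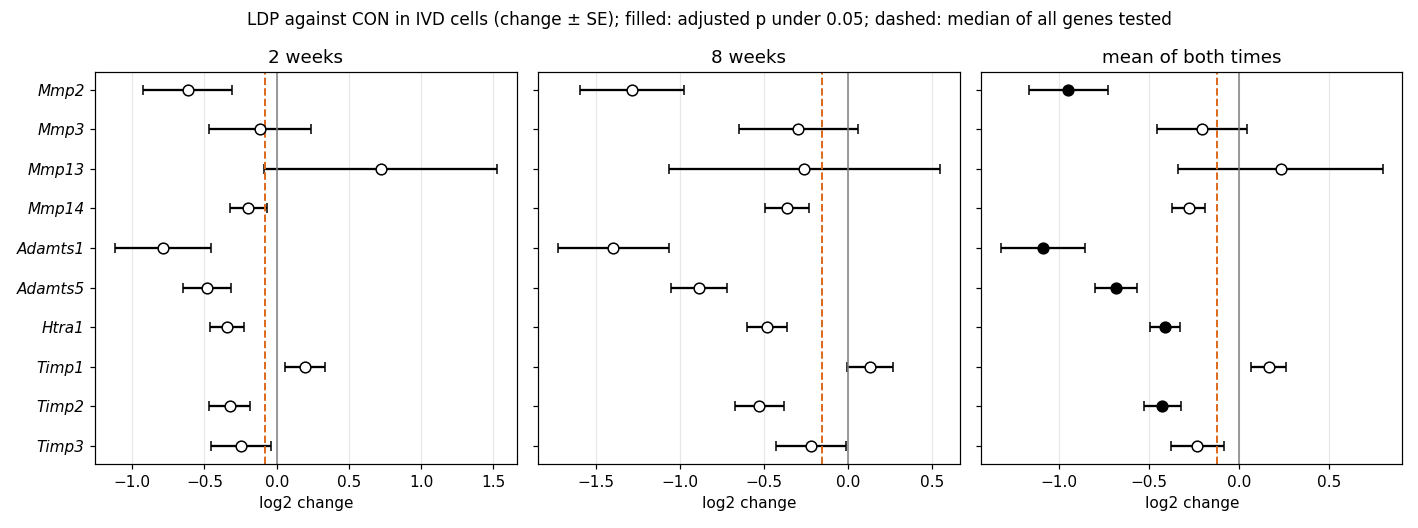
Log2 change of each gene in LDP against CON in IVD cells with its SE, at 2 weeks, at 8 weeks and as the mean of both; filled points have an adjusted p below 0.05 (limma) and the dashed line is the median of all genes. The 5 filled points, from -1.09 for Adamts1 to -0.41 for Htra1, are in the mean of both times.

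Several values moved with these changes. The level of an IVD class is a mean over its cells, so fewer cells of a kind and less RNA per cell cannot be told apart. The 6 outer annulus markers summed to 8681 to 15017 CPM in IVD cells of CON and 6663 to 13307 CPM of LDP at 2 weeks, and to 2388 to 4268 CPM and 1012 to 2751 CPM at 8 weeks. Of the 6, 3 were called lower over both times (median log2 change -1.03). OAF cells were 9.28% to 14.6% of IVD cells in CON and 6.29% to 16.4% in LDP at 2 weeks. With NP, IAF and OAF given equal weight at 2 weeks, the changes were -0.55 for Adamts1, -0.49 for Mmp2, -0.30 for Adamts5, -0.31 for Htra1 and -0.30 for Timp2, beside -0.79, -0.62, -0.48, -0.34 and -0.33 without weighting, and none passed. The 7 listed immediate early genes (8 fixed), which cell dissociation can raise, summed to 2136 to 7788 CPM in CON and 1637 to 2304 CPM in LDP at 2 weeks. At 8 weeks those sums were 2194 to 3693 CPM and 1299 to 3599 CPM. The endothelial markers, of a cell type high in Adamts1, summed to 29.2 to 143 CPM in IVD cells of CON and 13.1 to 25.7 CPM of LDP at 2 weeks, with no overlap, and to 15.3 to 18.6 CPM and 10.2 to 20.04 CPM at 8 weeks. Over both times 3 of the 5 tested were lower (median log2 change -1.35). Without cells carrying other cell types' markers, the Adamts1 change over both times was -1.19 (limma adjusted p = 0.02). That step could not remove free RNA or cells with fewer than 3 such UMIs, so the endothelial part was not tested by it. The part of the outer annulus and immediate early lists was not tested beyond the weighting.

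Within the subclusters at 2 weeks no member passed in NP, IAF or OAF cells, where 0%, 0% and 1.25% of genes did (in OAF cells 0.103% lower and 1.15% higher). Log2 changes in NP, IAF and OAF cells were -0.60, -0.86 and -0.09 for Adamts5, smallest in OAF cells, where its level was highest. They were -0.68, -1.63 and -0.43 for Adamts1 and -0.26, -1.36 and -0.44 for Mmp2. For Timp2 they were -0.41, -0.25 and -0.27, and for Htra1 -0.45, -0.27 and -0.17. At an unadjusted p under 0.05, 557 genes were higher and 521 lower in NP cells, and 261 and 1215 in IAF cells, edgeR called 1 in each, and DESeq2 called 200 and 205 (1.85% and 1.87% of genes), among them Adamts1 in both and Mmp2 in IAF cells. Mmp2 in IAF cells came nearest, at 57.1, 46.5, 72.6 and 45.7 CPM in CON against 22.0, 22.3, 19.6 and 18.6 CPM in LDP. The groups did not overlap, and the change was -1.36 ± 0.19 (SE, log2, limma adjusted p = 0.056). The LDP levels lay near the mean of NP cells of LDP (25.9 CPM), a level that may be background. Myeloid cells of LDP averaged 8.2 CPM. The size of the Mmp2 change is thus uncertain. The limma adjusted p was 0.046 with no rat block and 0.044 without rat 4, in fits that called 3 and 26 genes. The outer annulus markers summed to 4080 to 9751 CPM in IAF cells of CON and to 2084 to 2900 CPM in those of LDP, with no overlap, and their part in the change was not tested. The names of the LDP subclusters rest on matching cell numbers the study states, so IAF cells of CON and LDP may not be like populations. In IAF cells the immediate early genes summed to 2161 to 6953 CPM in CON and 1386 to 2133 CPM in LDP, with no overlap, and the pericyte and smooth muscle markers to 24.7 to 142 CPM and 11.3 to 33.6 CPM. The part of the immediate early genes was not tested. Without cells carrying other cell types' markers the Mmp2 change was -1.36 (limma adjusted p = 0.047). Adamts1 in IAF cells stood at 10.9, 19.8, 39.5 and 11.02 CPM in CON and 6.05, 6.19, 4.35 and 3.84 CPM in LDP (-1.63 ± 0.32, limma adjusted p = 0.13). The LDP levels lay below the mean of 7.09 CPM in myeloid cells of CON and above that of 2.6 CPM in those of LDP. They may thus hold background, and the size of the change is uncertain. The endothelial markers, of a cell type high in Adamts1, summed to 21.7 to 236 CPM in IAF cells of CON and to 12.8 to 27.5 CPM in those of LDP. Without the IAF cells that carried other cells' markers the Adamts1 change was -1.57 (adjusted p = 0.11).

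In OAF cells, Timp3 was at 180, 180, 201 and 230 CPM in CON and at 403, 324, 231 and 183 CPM in LDP (0.47 ± 0.23, adjusted p = 0.49), and only rat 4 was lower in LDP. OAF cells of LDP carried more markers of other cells. Cells with at least 3 UMIs of such markers were 3.3% to 6.32% of OAF cells in CON and 14.5% to 19.1% in LDP, and the Schwann cell markers summed to 2.28 to 2.92 CPM against 72.9 to 525 CPM. The pericyte and smooth muscle markers summed to 84.9 to 129 CPM against 284 to 613 CPM, with 3 of 4 called higher (median log2 change 4.27). Without those cells the Timp3 change was 0.09 (adjusted p = 0.93). The difference between the Timp3 changes in OAF and NP cells was 0.75 ± 0.19 (limma adjusted p = 0.15) and did not pass, where 0.286% of genes did. Without rat 4, Mmp3 (-0.91, adjusted p = 0.037) and Mmp14 (-0.61, adjusted p = 0.049) passed as lower in OAF cells of LDP, in a fit that called 47 of 11607 genes lower and 195 higher.

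Between 2 and 8 weeks, the discs were those of different rats, so that time, age and the handling of the libraries cannot be told apart. The clustering that drew the IVD class was also repeated at each time. In CON, Mmp14, Mmp2, Adamts1 and Timp2 were lower at 8 weeks and Timp1 was higher. These 4 of 10 and 1 of 10 stand beside 11.5% and 7.33% of genes called lower and higher, 18.9% in all. The same 4 had all libraries of 8 weeks below all of 2 weeks, as 14.3% of genes did, and Timp1 had all above, as 9.72% did. Mmp2 fell by 1.00 ± 0.18 (SE, log2, limma adjusted p = 0.0051). Mmp14 fell by 0.95 ± 0.14 (adjusted p = 0.0021), from 81.4, 76.2, 60.0 and 58.5 CPM to 30.0, 40.0, 33.1 and 37.7 CPM, with no overlap.

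Adamts1 fell by 0.91 ± 0.2 (limma adjusted p = 0.014) and Timp2 by 0.44 ± 0.11 (adjusted p = 0.021). Timp2 did not pass without rat 1, 3, 5 or 6 (adjusted p up to 0.069). The endothelial markers in IVD cells of CON also went from 29.2 to 143 CPM to 15.3 to 18.6 CPM, with 3 of 5 lower (median -1.02), and without cells carrying other cell types' markers Adamts1 fell by 1.00 (limma adjusted p = 0.0061). Timp1 rose by 0.70 ± 0.13 (adjusted p = 0.0072), from 389, 392, 384 and 352 CPM to 792, 652, 511 and 545 CPM, with no overlap. Of the rest, Mmp13 changed by 1.90 ± 0.81 and did not pass (limma adjusted p = 0.12). Without rat 8 it was 2.77 (adjusted p = 0.012), and without cells carrying other cells' markers 2.43 (adjusted p = 0.033), in fits that called 15.8% and 20% of all genes. Those markers included Bglap, which was higher in cells with an Mmp13 UMI in 12 of 16 libraries, so leaving such cells out may also remove Mmp13-rich cells. Timp3 stood at 0.01 ± 0.11 and Htra1 at 0.14 ± 0.16.

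In LDP, Mmp2 fell by 1.67 ± 0.35 (limma adjusted p = 0.029) and Mmp14 by 1.11 ± 0.2 (adjusted p = 0.0175) from 2 to 8 weeks, 2 of 10 beside 3.25% of genes called lower, 1.07% higher and 4.32% in all. Mmp14 in LDP went from 61.5, 79.7, 53.4 and 47.8 CPM to 22.0, 25.4, 26.5 and 35.6 CPM, with no overlap. Adamts1 (-1.51, limma adjusted p = 0.052) and Timp1 (0.64, adjusted p = 0.057) did not pass, and both did without rat 4 (adjusted p = 0.035 and 0.017), as did Adamts5 (-0.73, adjusted p = 0.037), in a fit that called 13.7% of all genes. Mmp2 did not pass without rat 2, 3, 5, 7 or 8 (adjusted p up to 0.085), nor Mmp14 without rat 2, 6 or 7 (up to 0.058). The outer annulus marker sums given above were lower at 8 weeks in both groups, and their part in these changes was not tested. Of the 7 immediate early genes tested, 2 were called higher at 8 weeks in LDP (median log2 change 0.44), and their part was not tested either. The pericyte and smooth muscle markers in IVD cells of LDP went from 50.3 to 99.2 CPM to 19.8 to 36.7 CPM, with 3 of 4 called lower (median -1.99). Without cells carrying other cell types' markers, Mmp2 changed by -1.68 (limma adjusted p = 0.032) and Mmp14 by -1.11 (adjusted p = 0.022).

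**Figure D4:**
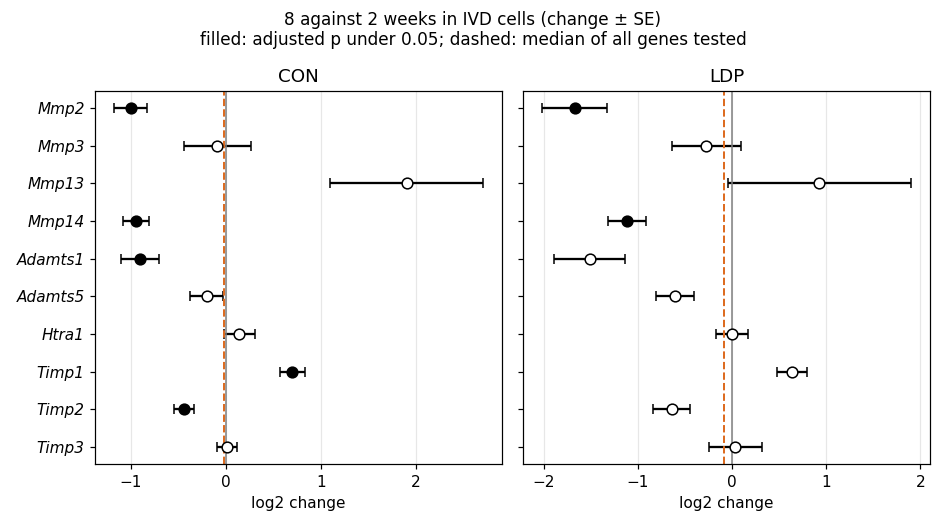
Log2 change of each gene at 8 against 2 weeks in IVD cells of CON and LDP with its SE; filled points have an adjusted p below 0.05 (limma) and the dashed line is the median of all genes. In CON, Mmp2, Mmp14, Adamts1 and Timp2 lie filled below 0 and Timp1 filled at 0.70, and in LDP only Mmp2 and Mmp14 are filled.

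Inhibitor and protease transcripts were also set against each other as the log2 ratio of summed Timp1, Timp2 and Timp3 to summed Mmp2, Mmp3, Mmp13 and Mmp14 in IVD cells, with no test. The ratio was 3.29, 3.27, 3.96 and 4.01 in CON and 4.27, 3.45, 4.15 and 3.28 in LDP at 2 weeks. At 8 weeks it was 4.27, 3.88, 4.25 and 4.44 in CON and 5.27, 4.62, 4.08 and 4.51 in LDP. LDP was higher in 6 of 8 rats, by a mean of 0.28 ± 0.6 (SD, n = 8), and the groups overlapped at both times. By subcluster at 2 weeks, all LDP libraries (4.89 to 5.09) lay above all CON libraries (4.33 to 4.62) in IAF cells. Mmp2, part of that sum, averaged 55.5 CPM in IAF cells of CON and 20.6 CPM in those of LDP. As said above, IAF cells of CON and LDP may not be like populations. In NP cells the ratio was 4.79 ± 0.282 in CON and 4.51 ± 0.0885 in LDP (SD, n = 4), and in OAF cells 1.60 ± 0.348 and 1.89 ± 0.332, with overlap in both.

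Of 114 other genes of the protease system on fixed lists, 83 were tested in IVD cells, and over both times 16 were lower and 2 higher in LDP (limma), where 5.72% and 2.08% of all genes were. The lists too were chosen with earlier results of these data known, so these counts are descriptive. With each rat left out in turn, Adamts2, Vcan and Htra4 passed every time. The other 15 lost their call in at least 4 of 8 such fits, Prss35 in all 8 (adjusted p from 0.060 to 0.107), and Bsg, Mmp15, Mmp16, Adamtsl3, Plat, Htra3, Spock2 and Col3a1 in 7. Among other MMPs, 2 of 5 tested were lower, the membrane types Mmp15 (-0.55) and Mmp16 (-0.77). Among other ADAMTS and ADAMTS-like genes, 2 of 11 were lower, the procollagen N-proteinase Adamts2 (-1.01) and the ADAMTS-like Adamtsl3 (-0.51). Of 5 ADAM sheddases, Adam9 (-0.61) was lower. Among other matrix-acting proteases, 6 of 19 were lower and 1 higher. The lower ones were Fap (fibroblast activation protein, -1.23), Ctsk (cathepsin K, -0.64), Plat (tissue plasminogen activator, -0.52), Tll1 (-0.98), Htra3 (-0.38) and Htra4 (-1.22), and the higher one was Prss35 (0.38). From the list of other protease inhibitors, Reck (-0.70) and Spock2 (-0.59), 2 of 13, were lower. A place on that list does not show that a gene product inhibits a protease. Bsg, also called EMMPRIN, a surface protein known to induce MMPs, was higher (0.45), and the clearance receptor Lrp1 (-0.48) was lower. Of the 12 substrates, Vcan (versican, -0.71) and Col3a1 (-0.89) were lower, and none of 13 upstream cytokine, receptor and factor genes was called.

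At 8 weeks alone, Htra4 was the 1 listed gene that passed (-1.46 ± 0.23, limma adjusted p = 0.034), and it did not pass without rat 1, 5, 7 or 8 (adjusted p up to 0.189). In OAF cells at 2 weeks the aggrecanase Adamts4 was the 1 listed gene of 86 tested that passed, where 1.25% of all genes did. It was at 96.2, 70.2, 89.5 and 72.5 CPM in CON and 248, 281, 246 and 232 CPM in LDP (1.61 ± 0.15, adjusted p = 7.1e-04). Without the OAF cells that carried Schwann, pericyte, smooth muscle or other cells' markers its change was 0.25 (adjusted p = 0.79). The largest changes at 2 weeks in 1 direction in all 4 rats, none passing, were Bsg (0.56), Prss35 (0.47) and Spock1 (0.17), and Htra4 (-0.98), Fap (-0.98) and Adamts2 (-0.75). At 8 weeks they included Bsg (0.34) and Plaur (0.27), and Adamts4 (-2.34), Fap (-1.47) and Htra4.

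From 2 to 8 weeks, 30 of 86 tested genes of these lists were lower and 4 higher in CON, and 14 of 79 were lower and 1 higher in LDP (limma). Of all genes, 11.5% were lower and 7.33% higher in CON, and 3.25% and 1.07% in LDP. Rats were not left out for these listed genes. In CON, 7 of the 12 substrates were lower, namely Col1a1 (-2.26), Col2a1 (-2.04), Col3a1 (-1.71), Bgn (-0.93), Vcan (-0.84), Comp (-0.75) and Acan (-0.70). The lower proteases were Mmp23 (-1.76) and Mmp16, Adamts2 (-1.20) and Adamts3, Adam9, Adam12 and Adam19, and Ctss (-1.19), Ctsk, Ctsd, Fap, Tll1, Bmp1 and Htra3. Adamtsl3, an ADAMTS-like protein with no protease domain, was lower too. Serpinf1 (-1.14), Spock2 and Tfpi, from the list of other protease inhibitors, were lower as well. So were the receptors Mrc2 (-1.32) and Bsg, and Il6st, Tnfrsf1a and Tgfbr2. Runx2 (1.04), an osteoblast and hypertrophy factor that drives Mmp13, rose with Serpina1 (0.90), Cstb (0.80) and Adamts6 (0.68). In LDP, the lower genes were Col1a1 (-2.83), Col2a1 (-2.57), Col3a1, Bgn, Comp, Adamts4 (-2.50), Adamts2, Adamts9, Adamtsl3, Mmp23, Mmp15, Serpinf1, Ctsk and Bmp1, and Serpina1 (1.09) was higher.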

How the data were processed

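Single-cell RNA-seq (10x Genomics 3′) was run on 16 libraries of pooled rat discs, 4 per group. The authors aligned and counted the reads in Partek Flow (build rn6 in the submitters' processing notes) and deposited, per cell, the log2 of CPM + 1 for each gene. They also deposited the total expected count of each cell and its percent of mitochondrial reads. Versions of the aligner are not given in the sources used here, nor is any treatment of doublets or free RNA. Cells carried the authors' class labels. LDP subcluster numbers were matched to NP, IAF and OAF by the cell numbers the study states.

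Multiplying CPM by the deposited expected count gave whole numbers, within 0.02, for 99.4% to 99.5% of values above 0 in each library, and these were used as UMI counts. Cell values were turned back to CPM and averaged per library and class (at least 20 cells). Genes with a mean of at least 1 CPM were tested as log2(mean CPM + 1) with limma 3.58.1 in R 4.3.3, with rat as a block for LDP against CON and Benjamini-Hochberg adjustment over all genes tested. A fold change on this scale understates the change of low genes. Pairing rests on the animal, since both libraries of a rat share it. Deviations from the group means correlated within rats 1 to 8 at -0.15, 0.20, 0.13, -0.19, 0.14, 0.47, 0.04 and 0.39. Only 1 library was made per rat and group, so p-values measure the spread between rats.

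Shares of cells were taken after thinning to 1000 UMIs per cell, leaving out shallower cells. Alternatives were a pseudocount of 10, a minimum of 10 CPM or none, and limma on CPM of summed UMIs with TMM scaling (called TMM). Others were edgeR 4.0.16, DESeq2 1.42.0, no rat block, equal weighting of subclusters and each rat left out. Leaving out cells with at least 3 UMIs of other cell types' markers, and each rat for the inhibitor ratio, was chosen after seeing the data. Those markers were of endothelial, myeloid (without Cd14), lymphoid, pericyte and smooth muscle, and Schwann cells, with the osteoblast genes Bglap and Dmp1. Scripts used Python 3.11.15 with numpy 2.4.6, pandas 2.3.3, scipy 1.17.1 and matplotlib 3.10.9. Only the limma fit of LDP against CON in IVD cells at 2 weeks was run on simulated counts, drawn with no rat effect.

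The members and lists were chosen with earlier results of these data known. Named genes were all 10 members, other listed protease genes past adjusted p of 0.05 in IVD cells or subclusters, up to 3 per direction with the largest change in the same direction in all 4 rats at each time, and the 3 genes most correlated with each member. One result that this rule names is not reported here.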

Additional observations from a re-analysis of the deposited data

Results flagged for a closer look

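Of 100 groups of 4 libraries tested by Dixon's ratio for a library far from the other 3, 7 had one, and chance gives about 1 in 20. In IVD cells, Adamts1 in LDP of rat 2 was 26.5 CPM against 12.5 to 14.6 CPM in the other rats of 2 weeks, and Timp2 in LDP of rat 5 was 466 CPM against 775 to 837 CPM in those of 8 weeks. In IAF cells of LDP, Adamts5 in rat 4 was 1.65 CPM against 2.95 to 3.098 CPM, and Timp2 in rat 3 was 1220 CPM against 960 to 992 CPM. In OAF cells of CON, Mmp3 in rat 2 was 346 CPM against 87.0 to 117 CPM. Adamts5 in OAF cells of CON rat 4 was 26.4 CPM against 17.1 to 17.9 CPM, and Timp1 in rat 1 was 524 CPM against 368 to 383 CPM. Among 40 pairs of changes, 0 had every rat of one set up and every rat of the other down.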

How the results depend on the processing

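The 5 genes lower in LDP over both times were called again with DESeq2, which called more of all genes than the main fit (numbers below). They were also called with no replicate block, where Mmp2 in IAF cells passed too (limma adjusted p = 0.046). The share of all genes called over both times with no block is not given here. With 4 rats per time, tests at single times rest on few rats, and Mmp13 and Mmp3 had the largest SEs over both times. Adamts5 was not tested at the 10 CPM minimum. Apart from leaving out rats, 591 of 620 member changes kept direction and side, 14 passed anew, 2 no longer passed (Htra1 over both times with TMM and with edgeR) and 13 reversed. The cause of these shifts was not tested.

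Genes called in IVD cells at 2 weeks (20) were 2 with a pseudocount of 10, 12 at 10 CPM, 282 by DESeq2, 5 with no replicate block and 13 with equal weighting. At 8 weeks (30) DESeq2 called 572. Over both times (870 of 11150) they were 428 at 10 CPM and 1823 of 11150 by DESeq2. The difference between times (0) gave 12 by DESeq2 and 3 with no block. In all cells, 2 weeks (0) gave 1 with TMM and 146 by DESeq2, and 8 weeks (1) gave 0 at 10 CPM, 2 with TMM, 2 with edgeR, 211 by DESeq2 and 3 with no block. NP (0) gave 1 with TMM, 1 with edgeR and 200 by DESeq2, and IAF (0) gave 1 with edgeR, 205 by DESeq2, 3 with no block and 17 without cells carrying other markers. OAF (145) gave 84 at 10 CPM and 29 without those cells. OAF minus NP (33) gave 0 with a pseudocount of 10, no filter, TMM or without those cells. Endothelial cells (0) gave 47 with TMM, 48 with edgeR and 46 by DESeq2. LDP at 8 against 2 weeks (475) gave 265 at 10 CPM and 1358 by DESeq2.

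Leaving out each rat gave 0 to 7 genes at 2 weeks, 1 to 567 at 8 weeks, 151 to 787 over both and 0 to 13 for their difference. It gave 0 to 1 in all cells at 2 weeks and 0 to 1 at 8 weeks, 0 to 0 in NP, 0 to 26 in IAF, 83 to 242 in OAF, 0 to 0 for OAF minus NP, 1 to 16 in endothelial cells, 1108 to 2425 for CON and 154 to 1506 for LDP at 8 against 2 weeks, and 0.176 to 0.424 for the inhibitor ratio.

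Under TMM, edgeR and DESeq2, Mmp14 in NP cells (-0.02) was 0.025, 0.015 and 0.018, Mmp3 in IAF cells (-0.41) was 0.025, 0.064 and 0.056, and Htra1 in LDP at 8 against 2 weeks (0.00) was 0.13, 0.12 and 0.13. Mmp3 at 8 against 2 weeks was 0.15 with TMM in CON (-0.09) and 0.068, 0.0058 and 0.018 in LDP (-0.27). Without single rats, changes spanned 0 for Mmp13 in IVD cells at 2 weeks (-0.11 to 1.71), at 8 weeks (-0.75 to 0.35) and over both (-0.18 to 0.72), in NP (-0.48 to 1.29), IAF (-0.024 to 0.99) and OAF cells (-0.53 to 2.78). They did so for Mmp3 at 2 weeks (-0.52 to 0.24), in NP (-0.075 to 0.82) and at 8 against 2 weeks in CON (-0.32 to 0.32) and LDP (-0.55 to 0.0019). Timp3 did so at 2 weeks (-0.45 to 0.073), in IAF (-0.40 to 0.079) and at 8 against 2 weeks in CON (-0.061 to 0.063) and LDP (-0.30 to 0.19), as did Mmp14 in NP (-0.14 to 0.27), Adamts5 in OAF (-0.29 to 0.16) and Htra1 in LDP at 8 against 2 weeks (-0.16 to 0.064).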

Other observations

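Cells that the authors left without a class were 628 in the LDP library of rat 6, the smallest library. In them Timp1 stood at 1752 CPM, Timp3 at 1015 CPM and Adamts1 at 274 CPM. In the 411 such cells of LDP rat 7, the same genes stood at 44.3, 57.0 and 1.45 CPM. These cells entered no comparison of IVD cells.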
